A study of Caenorhabditis elegans with 7 samples.

Results

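In Caenorhabditis elegans strain BN1190, FLP recombinase is driven in the hypodermis by the dpy-7 promoter, and its 3 libraries of L4 larvae were taken here as a set in their own right. Every gene was ranked inside the strain by the share of its reads with the T-to-C mismatch that the metabolic label leaves. All 3 libraries of BN1190 were used, out of 7 in the series. The other 4 came from strain BN1158, which lacks FLP and was given the same label, and its values stand beside those of BN1190 as the background. Both strains grew at 20 °C for 28 h from synchronized first-stage larvae, received 4-thiouracil for 17 h and were collected as whole L4 animals from 3 plates per sample. Labels name a strain and its FLP source and no further genotype, and they do not say whether replicates were separate cultures, so the spread behind each p-value may in part be technical. The ranking covered 10680 3′ UTR entries in 10328 genes, out of 33967 entries, each with at least 100 reads on average over the 3 BN1190 libraries. At that limit, T23G11.7#2, C26D10.3 and K07E3.2 lay just inside with 100.0 reads and shares of 12.3%, 0% and 4.32%, and zip-9, F08G12.1 and R06A10.5 just outside with 99.7 reads and shares of 0%, 4.73% and 2.17%. Where a gene has several separate 3′ UTR groups, the later ones carry a number sign (rfc-1#4).

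SLAM-ITseq reads new RNA of a chosen tissue without isolating its cells. Cells that express uracil phosphoribosyltransferase turn fed 4-thiouracil into a nucleotide and build it into new transcripts. Iodoacetamide then modifies the thiouracil, and reverse transcription reads the site as C instead of T. The hypodermis is the epithelium under the worm's cuticle. Its best-known products are the cuticle collagens, which are made in waves timed to the molts.

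Genes were ranked by a pair of measures. The T>C share of an entry is its reads with a T-to-C mismatch (T>C reads) as a percentage of all its reads. It includes the background of such mismatches, which the FLP-less strain also has, and is not a measure of hypodermal label alone. The conversion rate is the percentage of sequenced Ts of the entry that were read as C. Each library holds RNA of the whole animal, so a share averages over all tissues that express a gene, and fewer cells of a type and less RNA per cell cannot be told apart.

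Hypodermal replicates 1, 2 and 3 held 61924868, 20317812 and 18982440 gene reads, of which 3.35%, 3.57% and 3.76% were T>C reads. Over the ranked entries the median T>C share was 2.28%, 1.94% and 2.60% in these libraries, below the share of the library as a whole. In the control libraries 1 to 4, T>C reads made up 2.64%, 4.58%, 2.79% and 2.63% of gene reads, so control replicate 2 lay above every hypodermal library. Per the file headers, hypodermal replicates 2 and 3 and control replicates 2 to 4 name a flow cell, and hypodermal replicate 1 and control replicate 1 do not. Control libraries held 5040697 to 51976159 gene reads, replicate 2 the fewest. Limits on values of 0 cover counting error only, since reads were counted without molecular identifiers. Transcripts of FLP and of the uracil phosphoribosyltransferase were not analysed here, so the strain's label was looked at only through genes of the hypodermis, of which the cuticle collagens were read at a median depth of 10741.

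Genes of the body wall muscle stood high in the ranking, and cuticle collagens and sperm genes stood low. Of 10680 entries, 302 (2.83%) had a higher T>C share than their libraries as a whole and 605 (5.66%) had a lower one, 907 (8.49%) in all (edgeR's quasi-likelihood test, Benjamini-Hochberg adjusted p under 0.05). In the same fit to the FLP-less controls, 275 of the 302 and 598 of the 605 had the same sign. The median entry lay below the library share in every control library, so a low sign there was common among all entries. At an unadjusted p under 0.05 the counts were 513 (4.8%) and 1973 (18.5%). Among the 4001 entries with 1000 or more mean reads the calls were 282 (7.05%) above and 561 (14%) below. These counts rest on the reference: the library share weights each gene by its reads, the typical entry lay 0.78 below it on the log2 scale of odds, and against the median entry 757 were above and 139 below. So 33.3% of calls were above with the first reference and 84.5% with the second. Leaving out hypodermal replicate 3 left 165 above and 261 below, leaving out replicate 2 left 188 above, and leaving out replicate 1 left 395 below. limma on log2 odds called 0 in both directions, with 234 above and 2004 below at an unadjusted p under 0.05.

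**Figure D1:**
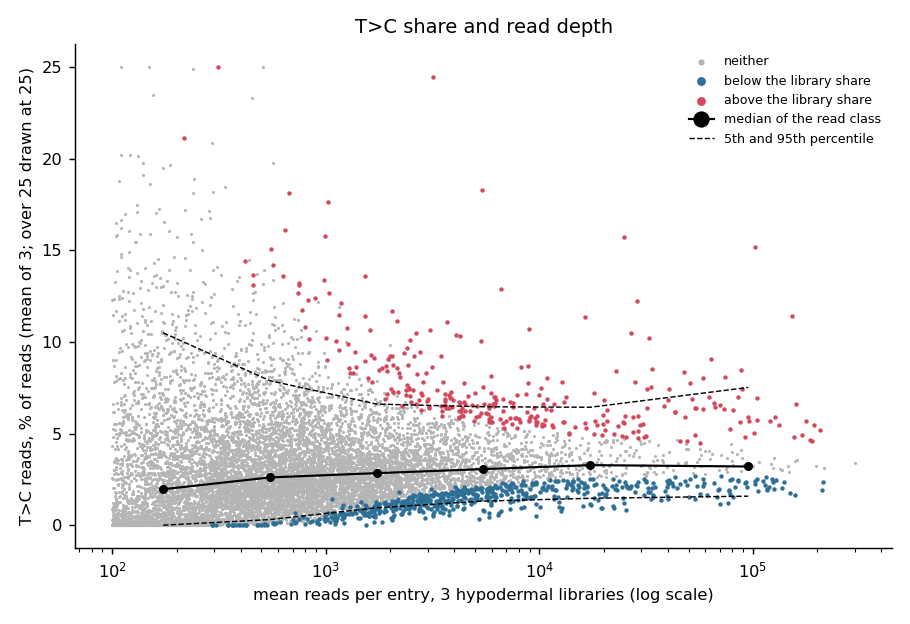
Mean T>C share (y axis, percent of reads that are T>C reads) against mean reads per entry (x axis, log scale) for 10680 entries in the 3 hypodermal libraries, with the 302 entries above and the 605 below the library share in colour. The median of each read class moves from 1.96% to 3.20%, while the span between the 5th and 95th percentile narrows from 0 to 10.5% at 100 to 300 reads to 1.58 to 7.51% at 30000 or more.

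At the head of the ranking, among entries with 1000 or more mean reads that share no UTR sequence with another gene, stood mt-CYTB, the mitochondrial gene of cytochrome b. Its T>C share was 14.5%, 25.9% and 32.8% in hypodermal replicates 1 to 3, and 14.4%, 42.9%, 33.5% and 32.7% in control replicates 1 to 4. The groups overlapped, and the lowest library in each was replicate 1. The entry is only 8 bases long, a limit taken up below.

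Next came pod-1, an actin-binding protein of the coronin family, read in a 3′ UTR entry of 573 bases on chromosome III (13514945 to 13515517, WBcel235). In hypodermal replicates 1 to 3 its T>C share was 13.9%, 19% and 21.9%, for a mean of 18.3% ± 4.04 (SD, n = 3). The controls ranged from 10.4% to 29.1% and overlapped that range. Its odds of a T>C read were 2.57 ± 0.18 (SE) above the library on the log2 scale (edgeR, adjusted p = 1.3e-42).

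The third place was held by pqn-27, which encodes a protein with a glutamine- and asparagine-rich prion-like domain and lies on chromosome II (13448835 to 13449468). It carried 10.8%, 21.7% and 20.3% T>C reads, with replicate 1 the lowest, and the controls spanned 2.91% to 22.1%. The Sec61 translocon subunit gene sec-61.B on chromosome IV (2388195 to 2388369) followed with 13.4%, 15.9% and 17.8%, against 8.05% to 23.4% in the controls. For neither gene were the groups separate.

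Depth was greatest for rps-4, a protein of the small ribosomal subunit, whose entry of 41 bases on chromosome IV (7083694 to 7083734) drew a mean of 102210 reads. It carried 14.3%, 14% and 17.2% T>C reads in hypodermal replicates 1 to 3 and 11.7%, 22.5%, 14.1% and 12.2% in control replicates 1 to 4. The means were 15.2% ± 1.73 (SD, n = 3) and 15.1% (n = 4), and its log2 odds were 2.27 ± 0.10 (SE) above the hypodermal libraries (edgeR, adjusted p = 1.15e-100). In edgeR the dispersion is estimated with information from all entries. Its SEs and p-values, here and elsewhere, therefore cannot be read as the spread of an entry's own 3 libraries. That spread hardly showed in the SE of the entries compared here. The SE was 0.104 for rps-4 and 0.108 for rpl-20, whose SD between libraries was only 0.0417 percentage points. At 1034 and 1014 mean reads, acl-2 and K10D3.4 had SEs of 0.419 and 0.471. Their SDs between libraries were 7.10 and 0.465 percentage points. With limma on log2 odds 0 entries were called in either direction, and whether an entry's own spread is the reason was not tested. The remaining places were taken by F44E5.5 with 13.6% ± 0.425, the mitochondrial chaperonin gene hsp-60 with 12.9% ± 1.78, the acyltransferase-like gene acl-2 with 12.7% ± 7.10, mt-ATP6 with 12.2% ± 3.86 and the hemicentin gene him-4 with 12.14% ± 4.83 (SD, n = 3). F44E5.5 has the near copy F44E5.4, at 11.1%, so reads of the pair may have been split. An antisense gene overlaps the entry of acl-2, as it does those of act-4, unc-22, rpl-41.2, cut-2, sbt-1, cnx-1 and K08B5.2 below, and reads of such pairs are uncertain where the counting ignored strand. With converted Ts in place of T>C reads, hsp-60 turned to below the library share. All 10 of these entries were above the library share in edgeR's test, and in none did the lowest hypodermal library exceed the highest control library. They, and entries named for a high or low share elsewhere, were picked by the value that the test uses. Their calls and p-values therefore add no independent support to their rank.

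At the foot of the ranking was ccar-1, which encodes a protein of the cell cycle and apoptosis regulator family and lies on chromosome IV (14075008 to 14075094). Its entry holds 7 Ts in 87 bases. None of its 2074, 1212 and 1367 reads was a T>C read, which allows a share of up to 0.0645% of the 4653 reads together, and the 4 controls were also at 0%. The sperm-specific protein gene ssp-16 had 0.153%, 0% and 0%, and fmo-4#3, an entry of a flavin monooxygenase gene, had 0%, 0.163% and 0.139%. For rfc-1#4, an entry of the large subunit of the clamp loader replication factor C, the values were 0.041%, 0% and 0.436%, in an entry of 105 bases with 9 Ts. In the controls rfc-1#4 was as low, with a mean of 0.119%, and fmo-4#3 had a mean of 0.545%. For ssp-16 the control mean was higher, at 1.18%, with single controls from 0% to 2.56%. The median control share of all ranked entries was 2.07%. K01H12.4, K10H10.4, R105.1 and T12B5.14 completed the lowest 8, with mean shares of 0.161%, 0.176%, 0.247% and 0.259%. The control mean of K10H10.4 was 1.07%. edgeR placed all 8 below the library share, again a test on the value by which they were picked.

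The 8 most read entries differed little between libraries and spread over the ranking. The ribosomal gene rpl-41.2 carried 3.43%, 3.24% and 3.54% T>C reads in hypodermal replicates 1 to 3, and the translation elongation factor gene eef-1A.1 carried 2.79%, 3.03% and 3.47%. Neither differed from the library share by edgeR's test, with adjusted p = 0.728 and 0.195. Also within the test's limits was ant-1.1, the mitochondrial ADP/ATP carrier, at 3.12%, 3.31% and 3.31% (adjusted p = 0.455). The ribosomal genes rps-3, at 2.15%, 2.46% and 2.52%, and rpl-20, at 1.86%, 1.94% and 1.92%, were below the library share. Above it were the actin gene act-4 at 5.30%, 4.88% and 5.39%, the intestinal aspartyl protease gene asp-1 at 5.00%, 5.39% and 5.97%, and far-2, a fatty acid and retinol binding protein, at 5.61%, 6.01% and 5.38%. Among these 8 genes the hypodermal SD was between 0.0417 and 0.491 percentage points. For far-2 the controls split into 4.34% and 5.19% in replicates 1 and 2 and 10.2% and 9.71% in replicates 3 and 4, around the hypodermal values. With the median entry in place of the library share, the log2 odds of rpl-41.2, eef-1A.1 and ant-1.1 turned from just below to 0.52, 0.37 and 0.45 above.

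**Figure D2:**
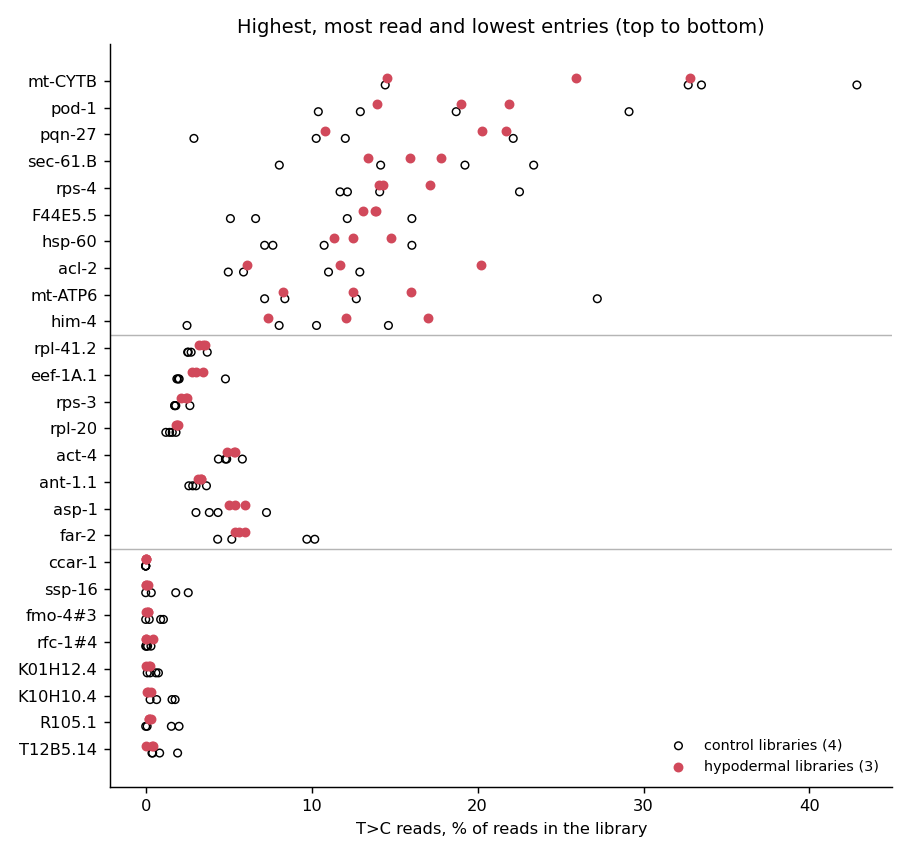
Labelled share per library (x axis, percent of reads that are T>C reads) for the 10 highest entries, the 8 most read entries and the 8 lowest entries, from top to bottom, with 3 hypodermal libraries as filled points and 4 control libraries as open circles. The groups lie apart from each other in height, from 0% for ccar-1 to 14.5 to 32.8% for mt-CYTB. The range of an entry's control circles overlaps that of its hypodermal points except for rpl-20. Its controls, at 1.21 to 1.83%, lie below its hypodermal libraries at 1.86 to 1.94%.

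Genes of body wall muscle had a higher T>C share than most ranked entries. Of its 74 entries, 59 were ranked, and 58 of those lay above the median share of all ranked entries. edgeR placed 27 of 59 (45.8%) above the library share, against 2.83% of all entries, and 0 below. With 1000 or more reads the counts were 27 of 45 (60.0%), against 7.05%. In the class of 3000 to 10000 reads, which holds the list's median depth, 9.90% of all entries were above and 19.5% below. The list's median share was 5.73%, against 2.68% for all ranked entries, and its median log2 odds were 0.68, against -0.78. The members came from the contractile machinery and its anchors. In this and the lists below, members other than the 2 most read and the highest were picked for naming after their values were seen.

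Myosin heavy chain B, unc-54, the main thick filament myosin of body wall muscle, carried 7.43%, 6.75% and 6.64% T>C reads in hypodermal replicates 1 to 3. Its controls were at 6.05%, 6.56%, 5.68% and 6.10%, all below the hypodermal libraries. Paramyosin, unc-15, the core of the thick filament, carried 5.74%, 4.71% and 5.33%, inside and around the control range of 4.42% to 5.46%. Both were above the library share, unc-54 by 1.01 ± 0.11 (SE) and unc-15 by 0.59 ± 0.12 on the log2 scale of odds (edgeR, adjusted p = 1.34e-17 and 2.4e-05).

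The giant kinases of the sarcomere ranked high as well. Obscurin, unc-89, a protein of the M-line, carried 11.9%, 10.2% and 13%, while its controls spread from 0.87% to 18.9%. Twitchin, unc-22, carried 5.87%, 6.81% and 5.83%, above the control range of 0.249% to 5.75%. Among thin filament genes, troponin C of body wall muscle, pat-10, carried 8.71%, 8.4% and 8.02%, above all controls at 4.44% to 7.71%, and tropomyosin, lev-11, carried 6.29%, 6.33% and 5.97%, above controls at 4.95% to 5.91%. The muscle actin genes act-1 and act-4 had means of 4.90% ± 0.105 and 5.19% ± 0.275 (SD, n = 3). Actin genes are close copies, so reads may have been shared among them in the authors' counting. The type IV collagen of the basement membrane, emb-9, was also above the library share at 7.22% ± 0.580. Lowest of the list with 1000 or more reads was unc-52, the perlecan of the muscle basement membrane, at 1.86%, 2.83% and 2.63%, and it did not pass the test (adjusted p = 0.0755).

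In all 3 hypodermal libraries the muscle list was high. Summed over its entries, T>C reads made up 5.92%, 5.53% and 5.57% of reads in hypodermal replicates 1 to 3 and 4.75%, 5.55%, 4.74% and 4.38% in control replicates 1 to 4. Control replicate 2 lay just above the lowest hypodermal library, and the other controls lay below all of them. Fitted to the 4 control libraries alone over the same entries, edgeR placed 14 of the 59 above the control library share, and all 14 were among the 27.

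Cuticle collagens, the chief structural products of the hypodermis, stood low in the ranking of the hypodermal strain. Of the ranked entries, 54 (48.2%) were below the library share, against 5.66% of all entries, while 4 (3.57%) were above. With 1000 or more reads, 54 of 96 (56.3%) were below, against 14%. In the class of 10000 to 30000 reads, which holds the list's median depth, 28.8% of all entries were below and 16.9% above. The median share was 1.95%, against 2.68%, with a median log2 odds of -0.96, against -0.78 for all entries. With the median entry as reference, 25 collagens were below.

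The collagen col-71, the most read of the family, carried 2.08%, 1.87% and 2.16% T>C reads in hypodermal replicates 1 to 3, and its controls 1.60% to 2.48%. Next by reads was ram-2, a cuticle collagen needed for the shape of male tail rays, at 2.56%, 2.72% and 2.09% with controls at 2.12% to 2.70%. Both fell below the library share, by 0.83 ± 0.12 and 0.56 ± 0.12 (SE) on the log2 scale, and neither group was separate from its controls. With the median entry as reference the log2 odds of ram-2 turned to 0.028 above.

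Several collagens that set body shape were also below. The gene dpy-13 carried 1.95%, 1.92% and 1.78%, sqt-3 carried 2.37%, 2.26% and 1.61%, and rol-6 carried 1.02%, 1.81% and 1.90%, all below the library share. The lowest collagens with 1000 or more reads were col-139 at 0.839% ± 0.191 and col-106 at 0.860% ± 0.109 (SD, n = 3). The exceptions above the library share were bli-2, a collagen of the adult cuticle struts, at 5.93%, 7.47% and 6.51%, and col-39, col-73 and col-88, at means of 5.83%, 5.69% and 4.85%. For dpy-7, the collagen gene whose promoter drives FLP, the share was 1.76%, 1.65% and 0.632%, with controls from 0% to 4.04%, and edgeR's test did not call it (adjusted p = 0.227).

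Summed over the list, T>C reads made up 2.21%, 2.29% and 2.29% of collagen reads in hypodermal replicates 1 to 3. The controls held 2.1%, 2.77%, 2.11% and 1.80%, and so lay on both sides of the hypodermal values. The difference from muscle was present in each library of both strains. In the fit to the 4 control libraries alone, 30 collagens were below the control share, and 29 of these were among the 54.

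Other genes of the hypodermis, a list of cuticlins, molting factors, secreted proteins and epidermal enzymes, gave 0 above and 8 below of 74 ranked entries (10.8%, against 5.66%). At an unadjusted p under 0.05 the counts were 3 and 19. The list's median share was 2.69%, beside 2.68% for all ranked entries, and 38 of the 74 lay above the latter. Its highest member with 1000 or more reads was hmr-1, the worm's cadherin, at 5.73%, 9.44% and 8.04%, which was not called (edgeR, adjusted p = 0.133) and whose controls ran from 0% to 18.5%. The cuticlin gene cut-2 carried 2.26%, 2.06% and 2.17%, below the library share, with controls at 2.07% to 3.30%. The gene pdi-2, a protein disulfide isomerase that serves collagen folding, carried 3.13%, 3.76% and 3.54% and was not called (edgeR, adjusted p = 0.882). Its controls were 2.46% to 3.27%. Seam cell genes were too few and thinly read to place, with 6 entries ranked, 0 called and pooled shares from 2.11% to 4.06%.

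Sperm genes held the low end together with the collagens. Of 57 ranked entries, 27 (47.4%, against 5.66% of all entries) were below the library share and 2 (3.51%, against 2.83%) above, and the median share was 1.25%, the smallest of the 18 lists. In the class of 1000 to 3000 reads, which holds the list's median depth, 7.56% of all entries were below and 2.74% above. The major sperm protein gene msp-59 carried 1.75%, 0.382% and 0.839%, and the sperm-specific gene ssq-4 carried 1.40%, 1.90% and 1.29%. The phosphatase gene gsp-3, which acts in sperm, carried 0.139%, 0.509% and 1.31%. These values overlapped the controls, which were 0.322% to 1.19% for msp-59 and 0.431% to 1.84% for gsp-3. The 2 sperm genes above the library share were msp-152, at 4.7%, 8.85% and 6.19%, and msp-56, at a mean of 5.64%. Major sperm protein genes are near-identical copies, and reads may have been placed in the wrong copy. Leaving out hypodermal replicate 3 left 17 sperm genes below, and counting converted Ts in place of reads left 15.

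Germline genes had a median depth in the class of 1000 to 3000 reads, in which 7.56% of all entries were below the library share. Among germline genes 14 of 55 were below the library share (25.5%, against 5.66%) and 2 were above. Those below included the RNA-binding regulators gld-1 at 1.61% ± 0.805, oma-2 at 0.769% ± 0.542 and the helicase gene glh-1 at 2.40% ± 0.282 (SD, n = 3). The eggshell gene cbd-1 carried 1.92%, 1.73% and 1.48%, below the library share although all 3 values lay above its controls, at 0.675% to 1.25%. The Argonaute gene wago-1 was above at 8.21%, 12.6% and 12.5%, a sign that turned with converted Ts. With the median entry as reference, 2 germline genes were below, and without hypodermal replicate 1 the count was 9.

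Intestinal genes leaned upward, with 10 of 54 above (18.5%, against 2.83%) and 3 below (5.56%, against 5.66%), and 45 of the 54 lay above the median share of all entries. In the class of 3000 to 10000 reads, which holds the list's median depth, 9.90% of all entries were above and 19.5% below. The lysozyme gene lys-4 led with 6.52%, 7.56% and 11.8%, and the fatty acid desaturase gene fat-7 carried 5.56%, 13.5% and 5.73%. The yolk protein gene vit-6 went the other way at 1.65%, 2.52% and 1.76%. All 3 vit-6 values lay above its controls, at 1.08% to 1.59%, although it ranked below its own libraries. With the median entry as reference, 27 intestinal genes were above.

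Neuronal genes gave 4 of 69 above (5.80%, against 2.83%) and 0 below (against 5.66%). Among the 4 were 2 genes of neuropeptide processing, sbt-1, a chaperone of the proprotein convertase, at 7.86%, 9.6% and 12.7%, and egl-3, the convertase, at 4.57%, 4.88% and 6.5%. Control replicate 2 was higher than every hypodermal library for both, at 17.8% and 8.78%. Pharyngeal genes gave 4 of 68 above (5.88%, against 2.83%) and 3 below (4.41%, against 5.66%). Nuclear hormone receptor genes gave 0 of 78 and the list of glia, coelomocytes, excretory and sheath cells 0 of 19 in either direction by edgeR, at median depths of 234.8 and 310.0 reads. At an unadjusted p under 0.05 these lists had 1 above with 7 below and 1 above with 2 below.

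**Figure D3:**
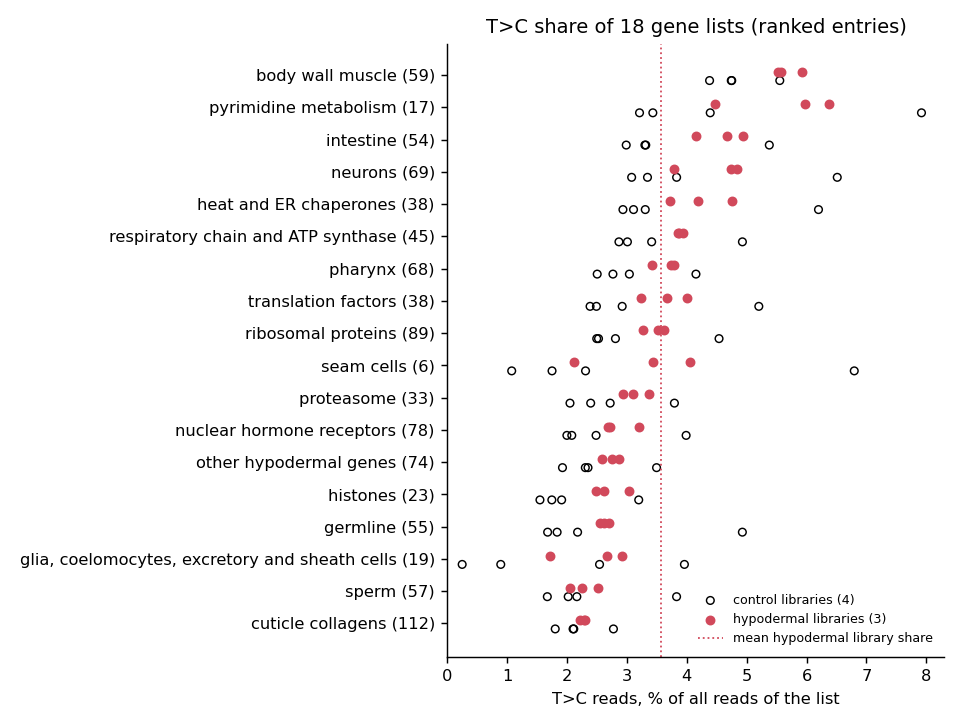
T>C reads as a percentage of all reads of each of 18 gene lists (x axis), with the number of ranked entries in brackets, the 3 hypodermal libraries as filled points and the 4 control libraries as open circles. In the hypodermal libraries body wall muscle lies at 5.53 to 5.92%, pyrimidine metabolism at 4.47 to 6.37%, cuticle collagens at 2.21 to 2.29% and sperm at 2.05 to 2.51%, and the dotted line marks the mean hypodermal library share of 3.56%.

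Housekeeping machines were spread over the ranking in different ways. Ribosomal protein genes were called in both directions, 17 of 89 above (19.1%) and 36 below (40.4%). Their median depth of 79774 reads falls in the deepest class, in which 27.3% of all entries were above and 38.3% below. That class holds only 209 entries, many of them ribosomal genes themselves, so it is not a separate group to compare with. The large subunit genes rpl-29, at 6.54%, 12.4% and 12.5%, and rpl-3, at 7.20%, 9.31% and 10.7%, were the next highest after rps-4. Entries of a single ribosomal gene could differ, as rpl-12#2 lay at 6.42% and rpl-12#3 at 1.31%. By the median entry 28 ribosomal entries were above and 5 below, and by converted Ts 22 were below.

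Translation factor genes gave 6 of 38 above (15.8%) and 0 below, against 2.83% and 5.66% of all entries and 9.90% and 19.5% in the class of 3000 to 10000 reads that holds the list's median depth, with eif-3.I, a subunit of initiation factor 3, the highest at 5.46%, 11.3% and 10.5%. Chaperone genes gave 8 of 38 above (21.1%) and 3 below (7.89%), against the same 9.90% and 19.5%, led by hsp-60 and by calnexin, cnx-1, at 6.99%, 11.6% and 12.4%. Genes of the nuclear-encoded respiratory chain and ATP synthase gave 5 of 45 above (11.1%) and 1 below (2.22%), against 9.90% and 19.5% in the class of 3000 to 10000 reads that holds the list's median depth, and 39 of 45 lay above the median share of all entries. In that list cox-6B, a subunit of cytochrome c oxidase, carried 6.73%, 6.6% and 6.13%, between 3 controls at 4.20% to 4.75% and control replicate 2 at 9.11%. Proteasome genes had 8 of 33 below (24.2%) and 3 above (9.09%), near the 19.5% and 9.90% of all entries in the class of the list's median depth, 3000 to 10000 reads. The subunit pbs-1 carried 1.25%, 1.56% and 2.99% and was below, while pbs-7 carried 3.91%, 5.31% and 7.74% and was above. Histone genes gave 1 above (4.35%, against 2.83%) and 5 below (21.7%, against 5.66%) of 23, with the variant H3.3 gene his-72 at 1.46%, 1.47% and 3.02% and the linker histone gene hil-4 at 2.15%, 1.19% and 1.51%, both below. Histone genes of repeated clusters are near-identical, so their reads are uncertain. Of 17 genes of pyrimidine metabolism, 2 were above (11.8%, against 2.83%) and 1 below (5.88%, against 5.66%), among the former pyr-1, the enzyme of the first steps of pyrimidine synthesis, at 4.79%, 4.79% and 8.31%. The pooled share of that list leans on its most read gene, ndk-1, which holds few converted Ts per T>C read. The list's median share was 2.87%, and its pooled conversion rate of 0.107% was below the 0.151% of the hypodermal libraries.

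The 3 libraries ranked genes alike where reads were many and hardly alike where they were few. With 1000 or more mean reads, Spearman's rho between hypodermal libraries was 0.45 for replicates 1 and 2, 0.52 for 1 and 3 and 0.49 for 2 and 3, across 4001 entries that share their libraries and are not independent replicates. Over 6679 entries with 100 to under 1000 reads it was 0.19, 0.24 and 0.20, and over 522 entries with 10000 or more reads it was 0.83, 0.86 and 0.88. The pair that both name a flow cell was in the middle at 1000 or more reads and highest at 10000 or more. Conversion rates gave 0.41 to 0.48 at 1000 or more reads and 0.81 to 0.86 at 10000 or more. Such agreement was not limited to the strain. By T>C share at 10000 or more reads, single hypodermal and control libraries had 0.62 to 0.90 with each other.

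The spread between libraries shrank with depth. It is given beside the SD that counting reads alone would leave, which holds no spread between samples. At 100 to under 300 reads, the median SD of the share between the 3 libraries was 2.45 percentage points, 2.03 times the counting SD of 1.21. At 30000 or more reads it was 0.322 percentage points, 3.90 times the counting SD of 0.0827. In the shallowest class 80.7% of entries had 0 T>C reads in at least 1 hypodermal library, and in the 2 deepest classes 0% did.

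**Figure D4:**
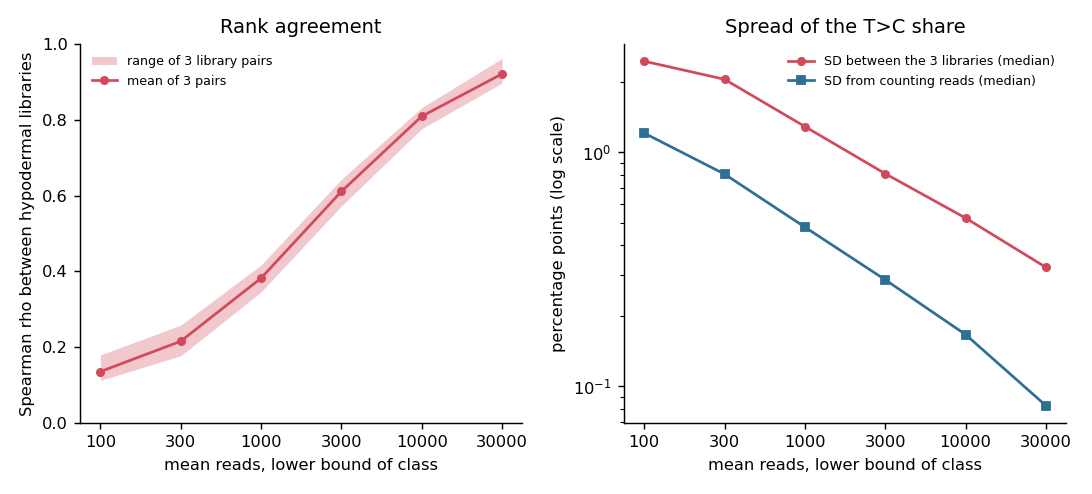
Left, Spearman's rho of the T>C share between pairs of hypodermal libraries (y axis) in 6 classes of mean reads (x axis, lower bound of the class), with the mean of 3 pairs as points and their range shaded; right, the median SD of the share between the 3 libraries and the median SD expected from counting reads (y axis, percentage points, log scale) in the same classes. Mean rho climbs from 0.14 to 0.92, and the library SD stays 2.03 to 3.90 times the counting SD.

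Few entries reached the extremes in every library. The top 5% of 4001 entries is 201 entries, and 35 of them were in the top 5% of all 3 hypodermal libraries, while 11 were in the bottom 5% of all 3. By conversion rate the counts were 58 and 10. The 35 included pod-1, sec-61.B, rps-4, unc-89, rpl-29, rpl-3, pat-10 and the muscle protein gene dim-1. All 35 were above the library share, in a test on the value by which they were picked. The top 5% chosen in hypodermal replicate 1 alone had a median percentile of 88.0 in replicate 2 and 91.2 in replicate 3, and of 79.4 to 89.3 in the 4 controls. Chosen in replicate 2, it was 84.7 and 89.7 in the other hypodermal libraries and 73.7 to 90.3 in the controls. Chosen in replicate 3, it was 89.8 and 91.9, and 78.9 to 93.4 in the controls, so some controls ranked these entries as high as the hypodermal libraries did.

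At low depth single libraries set the rank. Among entries with 100 to under 1000 reads, the highest mean shares were those of F59A3.8, the chloride channel gene clh-2, the procollagen lysyl hydroxylase gene let-268, the collagen receptor gene ddr-2 and K08B5.2. For F59A3.8 the T>C reads were 289 of 635, 61 of 161 and 33 of 147, or 45.5%, 37.9% and 22.4%, against 11.5% to 46.4% in the controls. The clh-2 share of 100% in hypodermal replicate 2 was 1 of 1 read, beside 5 of 301 and 0 of 28 in replicates 1 and 3. In let-268, ddr-2 and K08B5.2 replicate 2 was also the highest, with 22 of 26, 7 of 9 and 7 of 12 reads, and of the 5 genes only F59A3.8 passed edgeR's test.

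Some deeper entries also disagreed between libraries. The nucleotide-binding protein gene hint-1 carried 2.31%, 25.4% and 8.03%, the malic enzyme gene men-1 carried 4.94%, 20.5% and 4.11%, and dss-1, a small proteasome-associated protein, carried 3.62%, 17.5% and 5.91%. Hypodermal replicate 2 was the highest in each, and none of the 3 was called (edgeR, adjusted p = 0.226, 0.091 and 0.118). The wide-ranging acl-2, at 6.12%, 20.2% and 11.7%, was called above.

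Depth and share rose together to a limited degree. Spearman's rho between mean reads and mean share was 0.18 over 10680 entries, 0.29, 0.34 and 0.20 for the shares of hypodermal replicates 1, 2 and 3, and 0.12 over the 4001 with 1000 or more reads, as a description across entries of the same libraries. The median share rose from 1.96% at 100 to under 300 reads to 2.84% at 1000 to under 3000 and 3.20% at 30000 or more. The share of entries called above rose far more, from 0.0358% to 27.3%, and of those called below from 0.0717% to 38.3%. Called entries were read more deeply: the 302 above had a median of 6032 reads, the 605 below 4164 and the rest 586.

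Entries called below were poorer in T, with a median of 38.5% T, against 41.6% for both the entries above and all ranked entries. Their median lengths were 152, 163 and 151 bases for those below, above and all. The X chromosome held 15.2% of the entries above and 8.26% of those below, against 12.8% of all ranked entries. At 1000 or more reads the median share on X was 3.20%, and 2.87% to 3.02% on the autosomes.

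Both measures gave much the same order except in particular entries. Spearman's rho between mean T>C share and mean conversion rate was 0.86 over the 4001 entries, and 118 of the 200 highest by share were among the 200 highest by conversion rate. Per T>C read, the median entry held 0.992 converted Ts, but 217 entries (5.42%) held under 0.5. In hsp-60 it was 0.117: the entry ranked 7th by share and 3035th by conversion rate, which was 0.0717%, 0.0390% and 0.117% in hypodermal replicates 1 to 3. The Argonaute wago-1, with 0.135 converted Ts per T>C read, ranked 18th and 2992nd, and the chaperone hsp-1 with 0.227 and the nucleoside diphosphate kinase ndk-1 with 0.275 were also among the 217. Tested on converted Ts, these calls turned: hsp-60 was below by 1.09, hsp-1 by 0.68 and ndk-1 by 0.65 on the log2 scale, the log2 odds of wago-1 were -1.12 without passing the test, and F59A3.8 had -1.76, not called either. In ssq-4, which was low by both measures, it was 0.0945.

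The mitochondrial genome took the top of the conversion ranking. Of its 10 ranked entries, 9 were 1 to 9 bases long with 1 to 4 Ts, so each conversion rate rests on a handful of positions. The cytochrome oxidase gene mt-COX1, of 9 bases, had a T>C share of 7%, 12.8% and 14.5%, and 6.39%, 26.8%, 10.4% and 8.54% in the controls. By conversion rate mt-CYTB reached a mean of 12.5%, mt-COX1 10.7% and mt-ND3 9.39%, while among other entries with 1000 or more reads pod-1 had the highest, 1.25%. The one longer entry, mt-ND4 with 76 bases, carried 1.91%, 1.85% and 1.78% and was below the library share. Of the 10 entries, 8 were above and 1 below, and mt-ND5, of a single base, was not called (edgeR, adjusted p = 0.168). Without mitochondrial entries, 308 entries were above and 575 below.

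**Figure D5:**
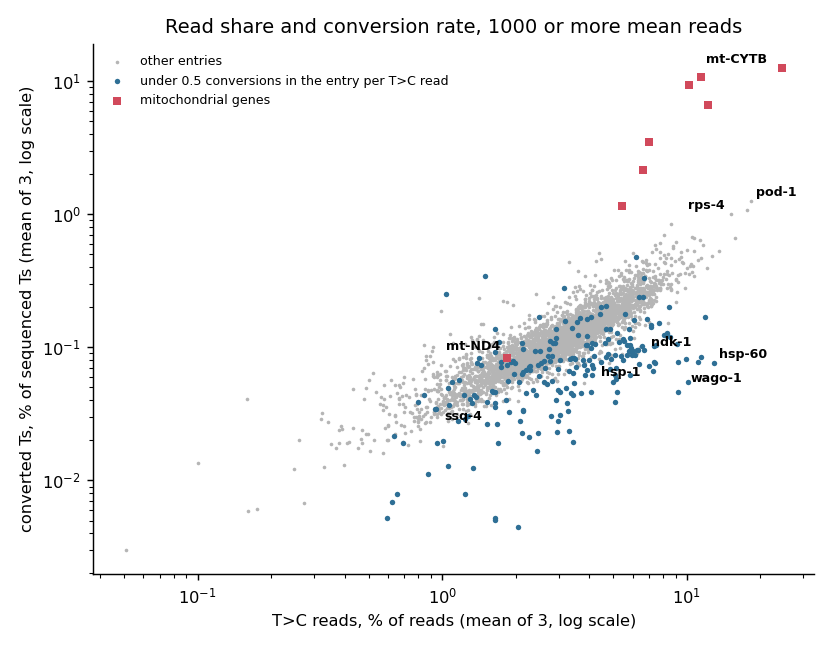
Conversion rate (y axis, percent of sequenced Ts read as C, log scale) against T>C share (x axis, percent of reads that are T>C reads, log scale) for entries with 1000 or more mean reads, as means of the 3 hypodermal libraries; entries at 0 are not drawn. Most entries follow a single band, 7 mitochondrial entries lie above it with rates from 1.14% to 12.5%, and entries with under 0.5 converted Ts per T>C read lie mostly below it.

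Much of the order was shared with the control strain. Across the 4001 entries, Spearman's rho between the mean share of the hypodermal and of the control libraries was 0.65, as a description. Single hypodermal and control libraries had 0.25 to 0.56 with each other, and single controls 0.23 to 0.46. Of the 200 highest entries in the hypodermal strain, 88 were among the 200 highest of the control strain and 192 in the upper part of its ranking, split at the median. In the fit to the 4 control libraries, 92 entries were above and 194 below. Of the 92, 87 (94.6%) were also above in the hypodermal libraries, which is 28.8% of the 302. Of the 194, 152 (78.4%) were also below, or 25.1% of the 605, and no entry was called in opposite directions in the 2 strains. Without control replicate 2, 86 control entries were below, 82 of them shared.

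When the strains were compared directly by edgeR, no entry passed. The authors' own comparison, described below, listed 198 genes. It was made on conversion rates, and its list holds adjusted p-values of up to 0.1 by the authors' test. The 2 results therefore differ in measure and in threshold, which was 0.05 on T>C reads here. Of 10680 entries edgeR called 0 (0%) as richer and 0 (0%) as poorer in T>C reads in the hypodermal libraries after adjustment, and 268 (2.51%) and 54 (0.506%) at an unadjusted p under 0.05. The median entry was shifted upward by 0.42 on the log2 scale of odds, and the unadjusted counts turned with the centring, to 194 higher and 90 lower on the log odds of all gene reads and to 87 and 153 on the median gene. DESeq2 called 0 and 0 with 529 and 106 unadjusted, and limma 0 and 0 with 234 and 180. Leaving out control replicate 2 gave 15 higher and 1 lower. Among the 5 libraries that name a flow cell edgeR's calls were 0 and 0, with 81 and 35 unadjusted, and those without one are a single library per strain. The flow cell alternative was added after the data were seen.

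Raw shares of the strains were separate in few entries. In 560 entries (5.24%) the lowest hypodermal library exceeded the highest control, and in 38 (0.356%) the reverse held. With 1000 or more reads the counts were 251 (6.27%) and 10 (0.25%). The directions cannot be set against each other, since a control library at 0 cannot lie above a hypodermal one. Control replicates 3 and 2, the shallowest, had 0 T>C reads in 54.9% and 30.4% of ranked entries, and in 817 and 267 of those with 1000 or more reads. Replicate 3 was read more deeply than replicate 2 and still had more zeros. Its median share at 1000 or more reads was 1.01%, against 2.04% to 3.21% in the other controls. The cause was not tested. The 10 highest of the 251 were Y37D8A.2, idpc-2, ttr-6, K10D3.4, pat-10, far-1, T16G12.1, Y34B4A.10, tnc-2 and ttr-41. Among all ranked entries of the lists, the upward count was 12 of 59 for body wall muscle, 8 of 89 for ribosomal proteins, 6 of 54 for intestine, 5 of 55 for germline, 5 of 78 for nuclear hormone receptors and 3 for collagens, with 0 to 4 in each other list.

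The largest gap among these was that of K10D3.4, at 8.93%, 9.52% and 8.61% in hypodermal replicates 1 to 3 and 0.624%, 3.57%, 0% and 2.89% in control replicates 1 to 4. The contrast was 2.56 ± 1.30 (SE) on the log2 scale of odds (edgeR, adjusted p = 1). In idpc-2 the shares were 10.6%, 7.88% and 9.78%, with controls at 1.78%, 7.5%, 0.76% and 2.55%, so control replicate 2 came close. The transthyretin-related genes ttr-6 and ttr-41, of a family of secreted proteins, carried 10.1%, 8.62% and 9.19% and 5.09%, 9.35% and 7.17%. Controls reached 6.4% and 4% in these. Troponin C of the pharynx, tnc-2, carried 6.23%, 7.94% and 8.16%, and far-1, a fatty acid and retinol binding protein, 8.31%, 7.53% and 7.48%, with controls at up to 5.59% and 7.33%. Each of these genes was above the hypodermal library share, while T16G12.1 and Y34B4A.10 were not called.

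The authors' deposited table lists 198 genes, which the authors chose on these samples, so its overlap is no independent evidence. Here 197 of them were ranked, 167 in the upper part of the ranking split at the median, and 22 in its top 5%. By edgeR 12 (6.09%, against 2.83%) were above the library share and 6 below. Their median share was 4.43% in the hypodermal libraries and 0.980% in the controls, and in 139 of 197 the lowest hypodermal library exceeded the highest control, against 5.24% of all entries.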

How the data were processed

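Slamdunk 0.4.3 wrote the deposited counts, per the file headers. For each of 47039 3′ UTR entries they give reads, reads with T>C, covered Ts and converted Ts. The deposited fraction is converted over covered Ts. The deposited score is a read count scaled to mapped reads and was not used in a test. The authors' series table gives an adjusted p-value for its genes; 21 of its per-sample columns were not used. The file headers name an annotation of WBcel235, and the submitters' processing notes name ce10 and DESeq2 without a role; how many T>C a read needed and whether variants were masked is not stated there.

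Entries were joined to genes by transcript name (42202) or sequence name (4816); 21 matched no gene (0.00444% of reads) and were dropped. Of overlapping isoform entries the most read was kept (33967). Ensembl's WBcel235 annotation gave names, and RefSeq's those of 12 mitochondrial genes. In the ranking, 57 entries share UTR sequence with another gene.

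T>C and other reads of each entry and library were fitted as pairs in edgeR 4.0.16 (R 4.3.3), quasi-likelihood F-test, two-sided, with library terms, the log odds of all gene reads of the library as offset, and Benjamini-Hochberg adjustment over 10680 entries at 0.05; standard errors are the log2 estimate over the root of F. The contrast with the controls used all 7 libraries and tested the labelled-by-strain term. Alternatives used DESeq2 1.42.0 and limma 3.58.1 (0.5 added to counts), other read limits, references and left-out libraries. Scripts were tested on simulated data. A limit on 0 is 3 counts. Python 3.11.15, pandas 2.3.3, SciPy 1.17.1 and matplotlib 3.10.9 were used.

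Named genes, among entries sharing no UTR sequence, were the 10 highest and 8 lowest by share and 6 further highest by conversion rate at 1000 or more reads, the 5 highest at 100 to under 1000, the 8 most read, the 5 with the largest gap between libraries, the 10 highest with separate groups, and the 2 most read and the highest of each of 18 lists. The groups, lists and members were chosen with earlier results of these data known.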

Additional observations from a re-analysis of the deposited data

Results flagged for a closer look

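In the control group of 4 libraries, the gap of the most distant library to its neighbour, divided by the range, passed Dixon's critical value in 6 of 49 sets of values examined; chance flags about 1 in 20 such sets. Control replicate 2 was the distant library in all 6. It held 4.58% T>C reads, beside 2.63% to 2.79% in the other controls, and a conversion rate of 0.224%, beside 0.105% to 0.119%. Its T>C share was also apart for the lists of intestine (5.38%, others 2.99% to 3.31%), germline (4.93%, others 1.67% to 2.17%), ribosomal proteins (4.54%, others 2.49% to 2.81%) and chaperones (6.20%, others 2.93% to 3.30%). For muscle and collagens it was not. The hypodermal group of 3 was too small for this rule.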

How the results depend on the processing

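Against the median entry as reference, 757 entries were above and 139 below, with 27 intestinal and 28 ribosomal entries above and 25 collagen, 16 sperm, 5 ribosomal and 2 germline entries below. limma gave 0 for both directions and for muscle, intestine, ribosomal, collagen, sperm and germline entries. Summing all entries of a gene gave 139 above and 400 below, with 6 intestinal entries above and 14 sperm entries below. DESeq2 gave 1006 below. Converted Ts gave 15 sperm and 22 ribosomal entries below. Leaving out 1 hypodermal library gave 165 to 261 above and 261 to 420 below, 17 to 23 sperm and 9 to 12 germline entries below, and a mean rank agreement of 0.27 to 0.32. Mean rank agreement was 0.29 in all, 0.34 from 20 reads up and 0.48 from 1000 reads up. The relation to depth was 0.18 in all and 0.32 from 20 reads up. Without control replicate 2 the contrast gave 15 higher and 1 lower; across all left-out libraries it was 0 to 15 and 0 to 1. The cause of these shifts was not tested. With libraries 1 to 3 of each group, the replicate block gave 0 higher and 0 lower (168 and 22 unadjusted), and the same libraries without the block 0 and 0 (306 and 49). The replicate numbers did not pair the libraries, as same-numbered deviations correlated at 0.04, -0.02 and -0.05.

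For 73 named genes, 768 of 935 alternative values kept direction and side of the threshold, 139 lost the call, 7 gained it and 21 changed sign. With converted Ts the log2 odds were -1.09 for hsp-60, -1.12 for wago-1, -0.68 for hsp-1, -0.65 for ndk-1, -1.76 for F59A3.8, -1.43 for clh-2, -0.049 for hint-1, -0.075 for T16G12.1, 0.058 for eef-1A.1 and 0.089 for rps-3. By the median entry they were 0.52 for rpl-41.2, 0.37 for eef-1A.1, 0.45 for ant-1.1, 0.028 for ram-2 and 0.40 for ddr-2. The thinly read clh-2 had -0.092 in DESeq2, -0.16 with summed entries and -1.65 to 1.18 with a hypodermal library left out, and ddr-2 had 0.87 in limma and -2.23 to 2.298 with a library left out (2.08 without replicate 1). Depth limits the ranking: at 100 to under 300 reads the mean rank agreement was 0.135.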
